A study of Mus musculus with 7 samples.

Results

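Replication origins that lie inside genes, away from the gene's ends, and that are found with and without replication stress are described here. The deposited lists of origins of mouse embryonic stem cells (mESCs) given aphidicolin (APH), overexpressing CDC6 (CDC6) or left untreated (WT) were merged, with an overlap of at least 1 bp, into 46639 regions on the autosomes and X. Regions held by all 3 lists, called constitutive, numbered 11888. Of these, 3215 overlapped the body of a protein-coding gene and lay more than 1 kb from both ends of every such gene. They are called intragenic constitutive regions below and made up 27.04% of the constitutive regions and 6.89% of all merged regions. The other constitutive regions were 5384 within 1 kb of a gene end (45.3%) and 3289 outside genes (27.7%). The lists themselves chose the members, so their presence in every condition is a description and not a result.

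The assay sequenced short nascent strands, the short DNA pieces made where a fork has just started, after digestion with λ-exonuclease, which spares strands that carry an RNA primer. APH libraries came from TetO-CDC6 mESCs exposed for 2.5 h to 0.5 µM aphidicolin, which slows forks by blocking replicative polymerases. CDC6 libraries came from the same kind of cells given 1 µg/ml doxycycline for 30 h, which switches on the CDC6 transgene, and WT replicate 2 came from these cells with neither agent. WT replicate 1 came from another mESC line, wild type and without the transgene by its labels, and was submitted earlier. Whether the 2 libraries of a condition were separate cultures is not in the labels, so the spread behind each p-value may be only technical. DNA peaks carry no marker of cell type and no level of CDC6, so neither was checked.

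In mammals, origins are licensed in G1, when ORC and CDC6 load the MCM helicase, and only some of the licensed sites fire in a given S phase. Origins are known to gather at promoters and CpG islands, where the chromatin is open. Inside a gene, a fork shares its template with elongating RNA polymerase, and long genes poor in active origins are known as a basis of fragile sites in human cells. Genes often have further start sites inside their bodies, called alternative or internal promoters, each of which makes a shorter transcript.

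The sequences shown here are those of internal promoters, whose rank comparisons below were added after the data had been seen. An internal start is taken here as a start of a protein-coding transcript that lies more than 1 kb from both ends of every protein-coding gene. The windows below run from 250 bases before to 50 bases after such a start, on the transcribed strand, 5′ to 3′, from RefSeq on GRCm38.p6 (mm10). Each CG dinucleotide is in capitals. The first 4 belong to Fbxl17, a substrate adaptor of a ubiquitin ligase (chr17:63500531-63500830, minus strand), Ipo5, a nuclear import receptor (chr14:120910944-120911243, plus strand), Mettl9, a histidine methyltransferase (chr7:121034195-121034494, plus strand), and Zfp800, a zinc finger gene (chr6:28261875-28262174, minus strand). They are shown because they are the internal promoters among the 10 strongest intragenic constitutive regions. The 5th is the internal promoter of Mier1, a partner of histone deacetylases (chr4:103119140-103119439, plus strand). The 6th, of the bromodomain gene Baz2b (chr2:60125691-60125990, minus strand), was also covered but is poor in CG. The last is a start of Ipo5 further into the gene that no merged region covered (chr14:120915597-120915896, plus strand). The windows were chosen after their values were seen, leaving out chromosomes 8 and 18. The first 5 were the strongest covered windows that are rich in CG by the limits given below. Baz2b was the strongest of the others. The CG numbers of these covered windows thus follow in part from the choice.
Fbxl17: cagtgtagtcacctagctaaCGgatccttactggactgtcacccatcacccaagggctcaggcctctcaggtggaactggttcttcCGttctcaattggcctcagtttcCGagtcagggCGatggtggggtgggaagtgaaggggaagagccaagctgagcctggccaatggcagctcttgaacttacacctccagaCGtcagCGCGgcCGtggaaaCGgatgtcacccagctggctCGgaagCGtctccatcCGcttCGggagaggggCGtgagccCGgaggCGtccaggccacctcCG
Ipo5: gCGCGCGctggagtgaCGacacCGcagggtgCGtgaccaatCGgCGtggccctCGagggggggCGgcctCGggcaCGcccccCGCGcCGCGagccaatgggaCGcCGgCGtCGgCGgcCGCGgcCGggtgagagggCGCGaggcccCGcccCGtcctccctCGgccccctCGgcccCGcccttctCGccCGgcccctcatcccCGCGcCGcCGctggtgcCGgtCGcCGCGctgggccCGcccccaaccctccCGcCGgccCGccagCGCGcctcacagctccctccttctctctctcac
Mettl9: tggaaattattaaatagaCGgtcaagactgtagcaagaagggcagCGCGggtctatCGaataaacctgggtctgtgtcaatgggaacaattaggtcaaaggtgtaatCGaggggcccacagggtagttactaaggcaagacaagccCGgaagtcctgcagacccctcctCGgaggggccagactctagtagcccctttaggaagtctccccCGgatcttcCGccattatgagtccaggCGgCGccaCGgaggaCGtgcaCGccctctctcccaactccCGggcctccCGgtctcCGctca
Zfp800: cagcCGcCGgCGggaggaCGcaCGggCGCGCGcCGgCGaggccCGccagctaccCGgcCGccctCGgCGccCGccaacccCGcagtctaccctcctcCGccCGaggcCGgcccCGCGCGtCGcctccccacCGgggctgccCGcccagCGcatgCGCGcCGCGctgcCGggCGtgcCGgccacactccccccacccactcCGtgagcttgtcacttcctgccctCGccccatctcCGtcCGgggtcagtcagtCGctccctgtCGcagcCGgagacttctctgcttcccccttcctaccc
Mier1: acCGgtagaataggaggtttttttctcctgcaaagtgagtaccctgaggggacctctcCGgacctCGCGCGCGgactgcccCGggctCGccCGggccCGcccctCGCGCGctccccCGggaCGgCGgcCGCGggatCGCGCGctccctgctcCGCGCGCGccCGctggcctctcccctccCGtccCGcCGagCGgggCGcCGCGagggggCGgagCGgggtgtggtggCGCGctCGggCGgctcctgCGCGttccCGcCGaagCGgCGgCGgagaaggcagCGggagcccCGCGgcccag
Baz2b: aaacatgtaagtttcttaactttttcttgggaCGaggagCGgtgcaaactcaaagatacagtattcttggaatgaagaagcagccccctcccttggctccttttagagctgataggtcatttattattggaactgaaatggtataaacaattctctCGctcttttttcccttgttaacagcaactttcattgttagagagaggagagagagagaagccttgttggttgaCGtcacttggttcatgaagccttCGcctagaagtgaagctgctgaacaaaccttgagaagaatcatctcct
Ipo5, not covered: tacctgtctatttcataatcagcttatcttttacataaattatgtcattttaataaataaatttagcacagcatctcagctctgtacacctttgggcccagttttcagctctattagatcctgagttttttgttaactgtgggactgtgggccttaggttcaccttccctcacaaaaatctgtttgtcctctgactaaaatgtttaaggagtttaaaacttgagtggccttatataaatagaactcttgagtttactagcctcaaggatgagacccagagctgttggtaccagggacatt
The covered windows of Fbxl17, Ipo5, Mettl9, Zfp800 and Mier1 hold 17, 47, 17, 41 and 49 CG dinucleotides. That of Baz2b holds 5, and the uncovered Ipo5 window holds 0. The GC content of the 2 Ipo5 windows was 80.7% where a constitutive region covered the start and 37.7% where none did. Over all uncovered internal starts the medians were 6 CG dinucleotides and 52% GC, so the uncovered Ipo5 window is poorer than most.

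The regions were set out by size and place to see how the members vary. Their median width was 955 bp, against 1429 bp for constitutive regions at gene ends and 871 bp for those outside genes. The narrowest member measured 529 bp, the widest 4212 bp, and the quartiles were 762 and 1380.5 bp. Nearly every member (3194) lay in 1 gene body, 20 lay in 2 and 1 lay in 3. The median distance to the nearest gene end was 16000 bp. A total of 312 members lay 1 to 2 kb from a gene end, 955 lay 2 to 10 kb away, and 1948 lay over 10 kb away, of which 442 were over 100 kb away. At the 1 kb limit itself, the closest members were in or beside Klf15 (1003 bp), Rhoh, Myo5a and Sp7 (1004 bp each) and Cdc37 (1005 bp). Among the closest regions left out were those at Ppm1h (998 bp), Comp (992 bp), Nefl (988 bp) and Sgsm2 (987 bp). The sources used here give gene ends but no exons, so exonic and intronic positions were not assessed.

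Each library also had its own deposited list of MACS peaks, from 71435 to 94747 peaks, with the authors' fold over a shared control and a q-value per peak. Read numbers are not in the lists, so the depth is unknown and precision is bounded by how many peaks each list holds. Of the 3215 members, 3206 had a MACS peak in all 6 libraries, and the other 9 lacked one in WT 1 alone. A second deposited list per library disagreed with its labels: all 20178 rows of the WT list of origins were rows of the second list labelled APH 1, all 31653 APH rows were rows of that labelled CDC6 1, and all 31384 CDC6 rows were rows of that labelled CDC6 2. The condition lists and MACS peaks were used as labelled, and the second lists only as an alternative.

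Peak strength was compared between location classes to ask how intragenic constitutive regions rank among the peaks of a library. A region took its strongest MACS peak in a library, placed by −log10 q-value as a percentile among all peaks of that library, where 100 is the strongest. Intragenic constitutive regions were weaker than those at gene ends in all 6 libraries, and somewhat stronger than those outside genes. Their mean rank was 83.5 and 83.8 in the APH libraries, 79.3 and 80.3 in the CDC6 libraries, and 76.3 and 79.9 in the WT libraries. Constitutive regions at gene ends ranked 88.3 and 91.0 in APH, 91.2 and 91.3 in CDC6, and 93.4 and 86.3 in WT. Those outside genes ranked 80.8 and 79.7 in APH, 73.0 and 74.8 in CDC6, and 67.0 and 79.7 in WT. WT 1 had both the highest rank at gene ends and the lowest in the other classes.

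The difference between intragenic and gene-end regions averaged -9.71 ± 4.52 rank points (SD, n = 6 libraries), from -17.1 to -4.84. It was negative in 6 of 6 libraries (sign-flip permutation test, exact and two-sided, p = 0.03125, the smallest that 6 libraries allow; adjusted p = 0.0365 over 7 comparisons of this kind). Without WT 1, which came from the other line, the difference was -8.23. Against regions outside genes the difference was 4.68 ± 3.14 points (SD, n = 6), positive in 6 of 6 libraries (exact permutation p = 0.03125, adjusted p = 0.0365), and 3.75 without WT 1. In WT 2 this second difference was 0.257. It missed the threshold when peaks were ranked by fold (3.47, exact permutation p = 0.0625). The median MACS peak was 478 bp narrower at intragenic regions than at gene ends (1569 against 2047 bp on average) and 258 bp wider than outside genes (1310.5 bp), again in 6 of 6 libraries (exact permutation p = 0.03125 for both, adjusted p = 0.0365). A wider region is more likely to reach into the 1 kb window of a gene end, so the class rule itself bears on the width.

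Members near an internal start stood apart from the rest of the intragenic regions. A member could be assessed where at least 1 host gene has an entry in the RefSeq table of promoters, which holds 17274 of the 21631 protein-coding genes and was true of 2506 members. Of these 2506, 514 lay within 1 kb of an internal start and 1992 did not. The table has no entry on chromosome 18, so the 128 members there could not be assessed. The 514 regions had mean ranks of 89.99 and 91.7 in APH, 91.6 and 91.7 in CDC6, and 94.0 and 87.5 in WT. The 1992 others ranked 82.0 and 81.9 in APH, 76.2 and 77.6 in CDC6, and 71.4 and 78.7 in WT. The library means of the 2 kinds did not overlap, but single regions did. In APH 1, for example, the lower quartile of the 514 was 86.6 and the upper quartile of the 1992 was 92.7.

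**Figure D1:**
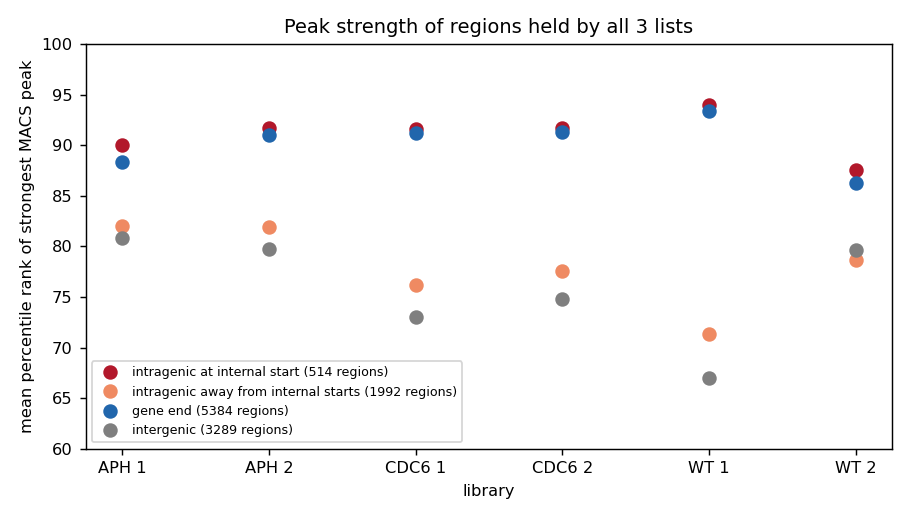
Mean percentile rank of the strongest MACS peak (vertical axis, from 60 to 100) in each of the 6 libraries for 4 location classes of constitutive regions, each point being the mean over the regions of a class. Regions at internal starts sit beside those at gene ends in each library, from 87.5 to 94.0, and the other intragenic regions sit lower, from 71.4 to 82.0.

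The regions at internal starts ranked 13.1 ± 5.52 points above the other intragenic regions (SD, n = 6; from 8.02 to 22.6; higher in 6 of 6 libraries; exact two-sided permutation p = 0.03125, adjusted p = 0.0365). Without WT 1 the difference was 11.2 points. They ranked 0.857 ± 0.515 points above regions at gene ends (SD, n = 6; higher in 6 of 6 libraries; exact permutation p = 0.03125, adjusted p = 0.0365). That small difference depended on the distance used: with starts within 5 kb in place of 1 kb it was -0.335 (exact permutation p = 0.3125). Intragenic regions away from internal starts ranked 2.11 ± 1.87 points above regions outside genes (SD, n = 6), higher in 5 of 6 libraries, which missed the threshold (exact permutation p = 0.0625, adjusted p = 0.0625). These 3 comparisons were added after the data had been seen.

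Replication stress was compared with WT on the same measure, as a description, because 2 libraries against 2 cannot give an exact p below 0.3333. The mean rank of intragenic constitutive regions was 83.6 ± 0.209 in APH, 79.8 ± 0.698 in CDC6 and 78.1 ± 2.57 in WT (SD, n = 2 each). The exact permutation p was 0.3333 for APH against WT and 0.667 for CDC6 against WT. The gap to gene ends was -6.03 ± 1.69 in APH, -11.4 ± 0.650 in CDC6 and -11.7 ± 7.62 in WT (SD, n = 2 each). The 2 WT libraries, at -17.1 and -6.32, enclosed both CDC6 values and 1 of the APH values. The gap between members at internal starts and the others was 8.89 ± 1.23 in APH, 14.8 ± 0.971 in CDC6 and 15.7 ± 9.74 in WT (SD, n = 2 each), with WT values of 22.6 and 8.86 on either side of both CDC6 values. The spread between the WT libraries, which came from different lines, was larger than any of these differences between conditions except that in mean rank between APH and WT.

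The share of regions at internal starts was then compared between intragenic regions held by different numbers of lists. It was 20.5% of constitutive regions (514 of 2506, Wilson 95% interval 18.98 to 22.1), 5.32% of regions held by 2 lists (174 of 3271, 4.60 to 6.14) and 3.86% of regions held by 1 list (254 of 6588, 3.42 to 4.35). Intervals cover counting error over regions only, because each condition has 1 list. Of the 2506 constitutive regions, 454 (18.1%) covered the start itself, and 78 of the 454 covered 2 or more starts, up to 5. Among the partial classes, the share was highest in regions held by the CDC6 and WT lists without APH (13.9%, 60 of 433) and lowest in those held by the APH list alone (2.11%, 51 of 2416). The CDC6 list alone gave 5.77% (172 of 2981). Starts of long non-coding RNAs were also nearest to constitutive regions, with 4.39% of them within 1 kb of such a start, against 1.38% of regions in 2 lists and 1.82% of those in 1 list. Median widths were 963, 730 and 580 bp in that order. They were 854 bp for the CDC6 and WT lists without APH and 541.5 bp for APH alone. The shares by list pattern and for long non-coding RNAs were not split by width.

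Wider regions reach more starts, so the share was also split by width. Under 700 bp, 2.98% of constitutive regions lay at an internal start, against 2.15% of regions in 2 lists and 3.09% of regions in 1 list. From 700 to under 1000 bp the shares were 7.29%, 5.76% and 6.35%. From 1000 to under 1500 bp they were 30.2%, 13.2% and 5.45%. At 1500 bp or more they were 45.1% (235 of 521), 5.63% (9 of 160) and 6.98% (3 of 43). The difference between classes was thus found among regions of 1000 bp or more, and it was small below that width.

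**Figure D2:**
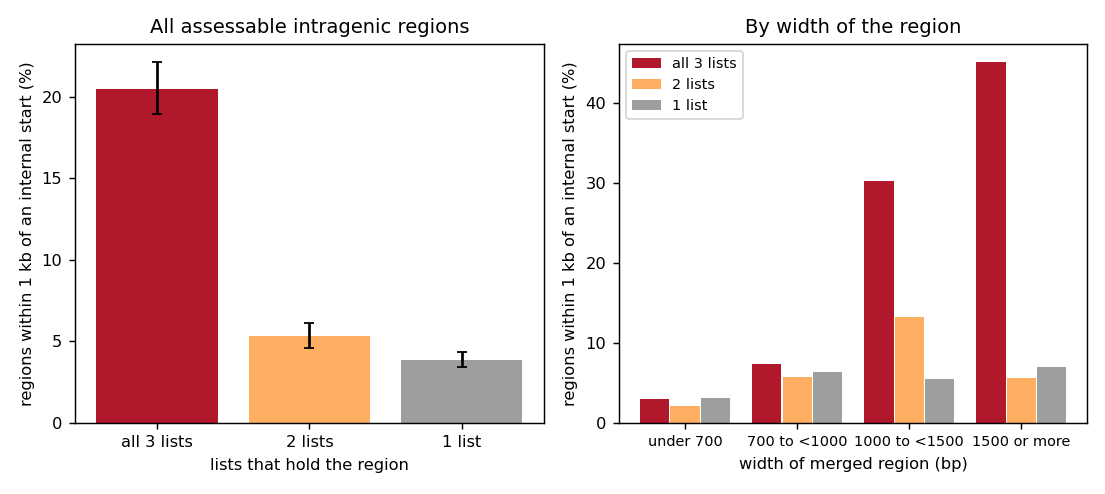
Share of assessable intragenic regions that lie within 1 kb of an internal start, in percent, by the number of lists that hold the region (left, with Wilson 95% intervals) and by width of the merged region (right). Constitutive regions reach 20.5% in all and 45.1% at 1500 bp or more, and the 3 classes lie between 2.15% and 3.09% under 700 bp.

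The share was also split by strength, among regions with a MACS peak in all 6 libraries only. Nearly all constitutive regions qualified. Of intragenic regions in 1 list, 59.4% had a peak in WT 2, and of those in 2 lists, 74.7% had one in WT 1. The order of the classes differed between strong and weak regions of this kind. Among members with a mean rank of at least 92 over the 6 libraries, 51.2% lay at an internal start (294 of 574), against 3.64% of regions in 2 lists (6 of 165) and 14.3% of regions in 1 list (5 of 35). Between ranks 75 and 85 the shares were 10.8% in constitutive regions, 10.8% in regions of 2 lists and 10.1% in regions of 1 list. Between ranks 60 and 75 they were 3.41%, 6.23% and 9.83%, and below rank 60 they were 1.58%, 5.85% and 5.50%. Constitutive regions thus had the lowest share among weak regions that had a peak in all 6 libraries.

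Seen from the starts, the base composition of the promoter windows differed between covered and uncovered starts. The table holds 3881 internal starts of 2929 genes. A constitutive region covered 553 of them (14.2%, in 447 genes), a region of 2 lists 162, a region of 1 list 161 and no region 3005. The CpG ratio compares the number of CG dinucleotides with that given by the C and G content of the window. Its median was 0.832 at starts covered by constitutive regions, 0.724 and 0.681 at starts covered by regions of 2 lists and 1 list, and 0.312 at uncovered starts. The median GC content was 68% at constitutive regions, against 64.3%, 62.3% and 52% in the same order. Over all 21045 starts of protein-coding genes in the table, the median CpG ratio was 0.574.

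**Figure D3:**
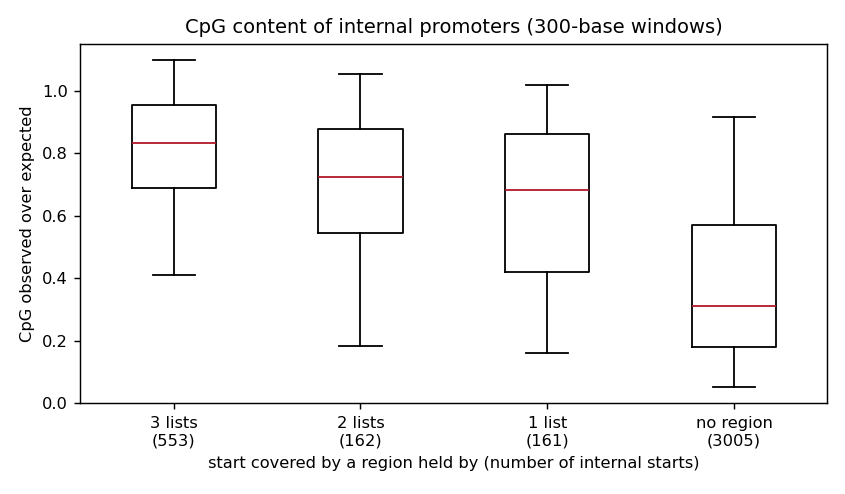
CpG ratio (observed over expected) of the 300-base windows at internal starts, grouped by the number of lists that hold the region covering the start. Boxes give the quartiles, the line the median and the whiskers the 5th to 95th percentile, and the median lies at 0.832 for the 553 starts under constitutive regions and at 0.312 for the 3005 uncovered starts.

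A window was called CpG-rich at a GC content of at least 50% and a CpG ratio of at least 0.6. Of the 1276 CpG-rich internal promoters, 458 (35.9%, Wilson 95% interval 33.3 to 38.6) were covered by a constitutive region and 615 (48.2%) by no region. Of the 2605 others, 95 (3.65%, 2.99 to 4.44) were covered by a constitutive region. CpG-rich windows made up 82.8% of the internal promoters under constitutive regions, 20.5% of the uncovered ones and 45.6% of all starts. A motif of 4 runs of at least 3 G, with 1 to 7 bases between runs, on either strand, the pattern used to look for G-quadruplexes, was found in 49.4% of the windows under constitutive regions, 41.4% and 32.9% of those under regions of 2 lists and 1 list, 16.1% of uncovered windows and 22.3% of all starts. The motif needs runs of G, so richer windows match more easily, and a match is no measured structure.

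Strength also differed a little with CpG content among members that cover an internal start. The 380 members over a CpG-rich promoter had mean ranks of 91.1 and 92.7 in APH, 92.9 and 93.3 in CDC6, and 95.5 and 89.5 in WT. The 74 members over other internal promoters had 88.7 and 90.03 in APH, 90.2 and 90.2 in CDC6, and 91.5 and 82.5 in WT. The first group was higher in each library, and both lay above the 1992 members away from internal starts. This difference was not tested.

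Position along the gene was measured from the gene start for the genes whose orientation the promoter table gives. Intragenic constitutive regions were densest near the start. There were 6.23 per Mb of gene body 1 to 5 kb from the start, 4.24 at 5 to 20 kb, 3.19 at 20 to 50 kb, 2.84 at 50 to 100 kb, 2.47 at 100 to 200 kb and 2.16 beyond 200 kb. Of the 349 positions 1 to 5 kb from the gene start, 209 were within 1 kb of an internal start. Without positions at internal starts, the density was 2.50 per Mb at 1 to 5 kb and 3.18 at 5 to 20 kb. Beyond 200 kb it was 2.10. These values still divide by the full gene body, so they can be too low where internal starts are common. Whether the peak next to the gene start is lost away from internal starts was thus not tested. Counted in this way, regions of 1 list had 8.32 per Mb at 1 to 5 kb and 9.41 at 5 to 20 kb. Those of 2 lists were also lower at 1 to 5 kb than at 5 to 20 kb. With all positions counted, regions held by 1 list had 9.96 per Mb at 1 to 5 kb and 6.77 beyond 200 kb. Along the relative length of the gene, cut into 10 equal bins, the first bin held 14.1% of the constitutive positions and the second 11.8%, and each later bin held 8.62% to 9.98%.

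**Figure D4:**
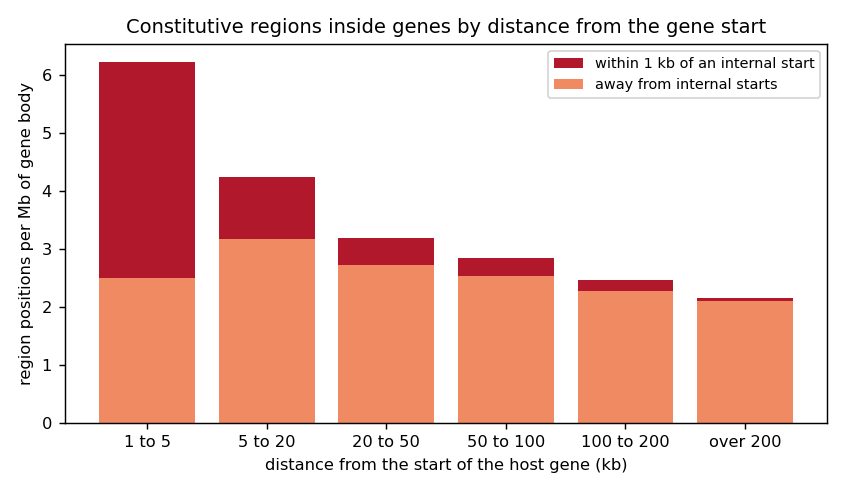
Positions of intragenic constitutive regions per Mb of gene body (vertical axis) by distance from the start of the host gene in kb, with the part within 1 kb of an internal start in dark red. The total is 6.23 per Mb at 1 to 5 kb and 2.16 beyond 200 kb, and the light part stays between 2.10 and 3.18.

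The strongest members give the range of the fold values. The region with the highest mean rank lay in Fbxl17 (chr17:63498828-63501068) and covers the internal promoter printed above. Its authors' fold over the control was 14.7 and 15.3 in APH, 11.7 and 11.2 in CDC6, and 10.6 and 8.26 in WT. The 9 next members lay in Cpeb2, an mRNA polyadenylation factor; Macf1, a cytoskeletal crosslinker; Ipo5; Unc45b, a myosin chaperone; Baz1a, a subunit of an ISWI remodeller; Sult2a3, a sulfotransferase; Gtsf1, a piRNA pathway factor; Mettl9; and Zfp800. Their mean ranks ran from 99.69 to 99.89. The Ipo5 region (chr14:120910146-120912078) had folds of 11.2 and 10.99 in APH, 8.15 and 9.77 in CDC6, and 9.73 and 6.84 in WT. Of these 10 regions, Fbxl17, Ipo5, Mettl9 and Zfp800 lay at an internal start, and those in Cpeb2, Unc45b and Gtsf1 lay at the start of a long non-coding RNA (Gm7854, Unc45bos and Gm52195). Cpeb2 and Baz1a have no entry in the promoter table, so internal starts could not be assessed there. WT 2 had the lowest fold in 9 of the 10, the exception being Sult2a3, and this is the authors' ratio in a library of unknown depth.

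The weakest members lay in Dera (mean rank 38.9), Rabgap1l (38.1), Reln, the secreted guide of neuronal migration (37.7), Atp8a2, a lipid flippase (34.5), and Myo10, a filopodial myosin (34.0). Those of Rabgap1l, Reln and Myo10 lay at no internal start, and those of Dera and Atp8a2 could not be assessed. The Myo10 region (chr15:25644637-25645320) had folds of 2.14 and 2.66 in APH, 2.09 and 2.14 in CDC6, and 2.40 and 2.75 in WT, and its rank ran from 5.98 in CDC6 2 to 75.3 in WT 2. At the edge of the rule, the regions of Klf15, Myo5a and Rhoh lay at internal starts, with mean ranks of 98.8, 97.8 and 70.7. That of Cdc37, at 77.5, lay at none, and that of Sp7, at 80.2, could not be assessed.

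The members were counted by host gene to see which genes hold them. They lay in 2486 genes, of which 1977 held 1, 359 held 2 and 150 held 3 or more. Longer genes held more in number and fewer per Mb, with 1 kb at each gene end left out of the length. That step weighs most in short genes, and densities over the full length were not compared. Of genes of 2 to 10 kb, 2.11% were hosts, with 6.03 members per Mb. Of genes of 50 to 100 kb, 21.2% were hosts, with 3.82 per Mb, and of genes of 500 kb or more, 76.2% were hosts, with 1.96 per Mb. Of 1943 oriented hosts, 35.5% also had a constitutive region at their start, against 27.7% of 13300 other genes over 2 kb, but hosts were longer (median 74.3 against 18.2 kb). At 50 to 100 kb the shares were 37.6% of hosts and 41.2% of other genes, and at 100 to 200 kb 43.5% and 47.2%. Hosts had the lower share in 5 of the 7 length bins and the higher share at 10 to 25 kb (24.5% against 23.5%) and at 500 kb or more (38.5% against 27.3%). Neighbouring members of the same gene, 751 pairs, lay a median of 45.2 kb apart, with 135 pairs (17.98%) within 10 kb and 197 over 100 kb.

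Macrod2, an ADP-ribose hydrolase, held the most members, with 10 over 1998 kb (chr2:140395303-142392966). Their mean ranks ran from 43.8 to 95.5, none lay at an internal start, and their spacing ran from 16.4 to 649 kb. The teneurin gene Tenm3, Nkain2 and the oxidoreductase gene Wwox held 7 each. Macrod2 and Wwox lie in known fragile sites in human cells. Magi2, a synaptic scaffold, Agbl4, a carboxypeptidase, Zfhx3, a transcription factor, and Ptprs, a receptor phosphatase, held 6 each, and Dlg2 and Ctnna3 held 5 each. Ptprs is the short gene of this group, with its 6 members in 64.1 kb (9.36 per 100 kb) and mean ranks of 89.5 to 95.6. Members close together can share a MACS peak. In Ptprs, those 51.1 and 47.9 kb from the start had the same mean rank (94.6), as did those at 36.6 and 34.3 kb (89.5). Those of Dlg2, a synaptic scaffold of 1973 kb, ranked 41.7 to 73.5.

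**Figure D5:**
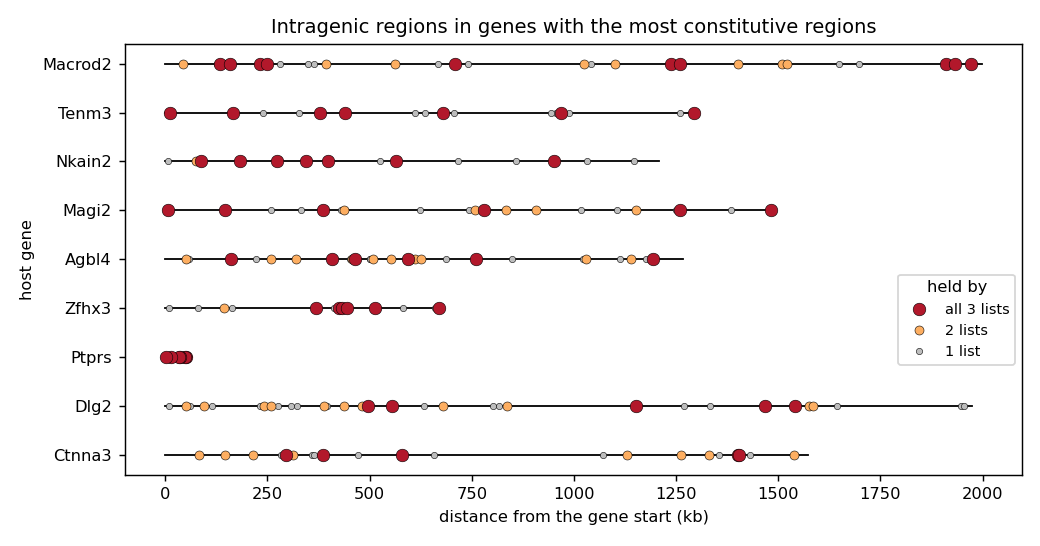
Positions of merged intragenic regions, in kb from the gene start, along 9 of the 10 genes with the most constitutive regions (Wwox has no orientation in the table). Large red points are constitutive regions, orange points regions of 2 lists and small grey points regions of 1 list, and the 10 red points of Macrod2 lie from 134 to 1971 kb while the 6 of Ptprs lie from 2.03 to 51.1 kb.

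By density, among genes of at least 50 kb with 3 or more members, the first were Shank1, a postsynaptic scaffold (5 members, 9.77 per 100 kb), Ptprs, the muscle kinase Speg (4, 7.01 per 100 kb), the adhesion receptor Adgrb1 (5, 6.82 per 100 kb) and the Hedgehog receptor Ptch1 (4, 6.14 per 100 kb). The members of Shank1 ranked 91.0 to 96.9, and the closest lay 0.128 kb apart. These densities count regions, which may share a MACS peak. The longest hosts held few. Dmd, the dystrophin gene of 2390 kb, and Ptprd each held 1, Cntnap2 and Lsamp 3 each, and Lrp1b 4. The member of Dmd was strong, with a mean rank of 98.7. The longest genes with none were Rbfox1, Lrrc4c, Il1rapl2, Cdh12 and Frmpd4, from 1106 to 1528 kb long. These genes did hold regions of fewer lists: Rbfox1, for example, had 4 of 2 lists and 4 of 1 list.

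Gene groups were described by their counts, beside all protein-coding genes over 2 kb, of which 12.95% were hosts with 3.10 members per Mb. Of 41 developmental transcription factors, 28 were hosts, with 5.11 per Mb and a median length of 186 kb. Beside Zfhx3 they include Sox5, Pax5, Ebf3, Bcl11a and Bcl11b with 3 members each. Of 36 neuronal adhesion and synaptic genes, 28 were hosts, with 1.74 per Mb over a median length of 1103 kb, Pcdh15 with 5 and Robo2 with 4 among them. Of 36 signalling components, 17 were hosts (4.91 per Mb), with Ptch1, Gli2 and Axin2 holding 4, 2 and 2. Of 36 chromatin regulators, 12 were hosts (4.07 per Mb), among them Auts2 and Hdac4 with 3 each. Of 24 pluripotency factors, 3 were hosts: the nuclear receptors Esrrb (2 members) and Nr5a2 (1), and the T-box factor Tbx3 (1). They held 7.18 members per Mb, from 4 members in all, over a median length of 9.90 kb. Of 34 replication licensing and firing factors, 4 were hosts with 1 member each (2.83 per Mb), namely the polymerase subunit Pola1, the ORC subunits Orc5 and Orc4, and Topbp1. For genes of 100 to 200 kb of any kind, 32.8% were hosts with 3.16 members per Mb. That last density leaves out 1 kb at each gene end, while those of the gene groups divide by the full gene length. The lists differ in gene length and were not tested against other genes of like length, so nothing is called particular to a list.

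Across chromosomes, members numbered from 2.36 per Mb of gene body on chromosome 14 to 3.88 on chromosome 18 among the autosomes, and 1.01 on X, where there were 46. In WT 1, the 184 members on chromosome 8 had a mean rank of 82.3 against 75.9 on the other chromosomes. In the other 5 libraries that difference ran from -1.77 to 0.989 points. Ranks without chromosomes 8 and X gave an intragenic minus gene-end difference of -9.85.

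The number of MACS peaks per gene was compared between conditions to ask whether host genes gained or lost peaks under stress. The test was limma on log2(number + 1), scaled to the mean total, over 1619 genes of at least 50 kb with a mean of at least 5 peaks, 937 of them hosts. No gene passed an adjusted p of 0.05 (percent called: 0) in APH against WT, CDC6 against WT or APH against CDC6. At an unadjusted p under 0.05, 61 genes (3.77%), 74 (4.57%) and 91 (5.62%) were reached in the same order. Hosts accounted for 23, 35 and 32 of these, which is 2.45%, 3.74% and 3.42% of the 937. The median log2 difference of hosts was 0.0016 for APH against WT, 0.087 for CDC6 against WT and -0.11 for APH against CDC6, against -0.0092, 0.11 and -0.14 over all genes tested. The APH and CDC6 comparisons share the WT libraries.

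Among hosts with 3 or more members, Rapgef5, a Ras-family exchange factor, had 3 and 4 MACS peaks in APH against 11 and 6 in WT. Its scaled log2 difference was -0.81 ± 0.36 (SE; limma adjusted p = 0.971). Cdkal1, a tRNA-modifying enzyme, had 7 and 10 peaks in APH against 21 and 16 in WT (-0.80 ± 0.39, adjusted p = 0.971), and the chromatin protein gene Mbd5 had 13 and 8 against 18 and 26 (-0.77 ± 0.37, adjusted p = 0.971). Dgkb, a diacylglycerol kinase, had 23 and 21 peaks in APH against 15 and 19 in WT (0.61 ± 0.31, adjusted p = 0.971). In CDC6, Gse1 had 48 and 45 peaks against 33 and 22 in WT (0.94 ± 0.28, adjusted p = 0.800), and the transcriptional coregulator Tcf20 had 14 and 19 against 12 and 9 (0.77 ± 0.30, adjusted p = 0.800). Npas3, a neuronal transcription factor, had 4 and 6 peaks in CDC6 against 14 and 11 in WT (-1.02 ± 0.30, adjusted p = 0.800), and Iqcm had 14 and 19 against 31 and 31 (-0.71 ± 0.30, adjusted p = 0.800). The peak numbers shown are not scaled to the totals of the lists, while the log2 differences are. The named genes were picked by their p, and none passed the test. The 8 shown were not always those with the smallest p. Ahdc1, with a smaller p than Dgkb, had 9 and 8 peaks in APH against 8 and 5 in WT. The 12 other genes named by the same rule had adjusted p from 0.800 to 0.971 and log2 differences between -0.63 and 0.85. Genes were called against WT when WT 1 or WT 2 was left out, and their number depended on which one. Hosts were not compared with the other genes in these fits. In these fits the lone WT library is assumed to vary like the other groups.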

How the data were processed

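The tools named per the submitters' processing notes are MACS2 2.0.10, bedtools 2.23.0, Picard 1.107, SAMtools 0.1.19, BWA 0.7.10 and FastQC, and the builds are mm10 (GRCm38) and mm9. Their roles and settings were not given in the sources used here. In the authors' deposited MACS lists, 1 per library, each peak has a score, a fold ratio over a control that all 6 libraries share, and a −log10 p-value and q-value. The deposited condition lists and second lists hold 2 scores whose meaning is not stated. Read depth is unknown, and no Input list was used here.

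Members and gene lists were chosen with earlier results of these data known. Regions were classified with a RefSeq table of GRCm38.p6. Ranks were set within a library, differences between classes were tested over libraries by exact sign-flip permutation, and 7 such p-values were adjusted by Benjamini-Hochberg. Peak numbers per gene were tested with limma 3.58.1 in R 4.3.3, adding a pseudocount of 1, after the step was tested on simulated data. Python 3.11.15 did the rest. Alternatives changed the ranking value, windows, width limit, lists, filter, scaling and libraries. Named regions were the 10 strongest, the 5 weakest and the 5 nearest each side of the 1 kb limit. Named genes were the 10 with most members, the 5 densest, the 5 longest with and without members, and per comparison the 5 hosts with 3 or more members and the smallest p in each direction. Some items that these rules name are not reported here. Replicate numbers did not pair the samples.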

Additional observations from a re-analysis of the deposited data

How the results depend on the processing

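The rank difference between intragenic and gene-end regions kept its direction and call under every alternative that used all 6 libraries. That against regions outside genes lost its call when ranked by fold (3.47), among regions no wider than the median (3.797) and with the second lists as labelled, ranked by second over first score (1.30). By the first score of the same lists it was 15.2, with its call kept. The difference between internal starts and other intragenic regions kept its call in all such alternatives. That between internal starts and gene ends missed the threshold as a median over regions (0.456) and turned to -0.335 with starts within 5 kb. Away from internal starts, the difference from regions outside genes passed among narrow regions (2.96). With the second lists, ranked by second over first score, it passed in the opposite direction (-1.21, exact permutation p = 0.03125). The cause was not tested. Leaving out 1 library leaves 5, whose smallest p is 0.0625, so no such test can pass; the differences ranged from -10.7 to -8.23 against gene ends, 3.75 to 5.57 against outside genes, 11.2 to 14.2 between internal starts and others, 0.688 to 0.942 between internal starts and gene ends, 1.65 to 2.73 away from internal starts, and -492 to -466 bp and 222 to 291 bp in width. The APH minus WT difference in the gap to gene ends ranged from 0.289 (without WT 1) to 11.1 and the CDC6 one from -5.07 (without WT 1) to 5.70, with -0.142 without CDC6 2. The number of members was 2903 and 2405 with gene-end limits of 2 and 5 kb.

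Without the filter on peak numbers, limma tested 4941 genes. It called 12, 10 and 2 for APH against WT, CDC6 against WT and APH against CDC6, 0 of them hosts. A host holds a peak in nearly every library, which limits its change at low peak numbers, so the 0 is no result about hosts. Leaving out a library gave 0 to 277, 0 to 364 and 0 to 113 calls, all from the fits without WT 1 or WT 2 (87 and 113 for APH against CDC6). The replicate block gave 0 calls in each comparison, and replicate numbers showed no pairing (correlations of -0.113, -0.283 and 0.185). Of 200 alternatives for named genes, 12 passed the threshold, each without WT 1 or WT 2, and 0 reversed. Depth, promoter entries missing for some hosts and 1 list per condition limit these values.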
